A study of Homo sapiens with 8 samples.

Results

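The COP9 signalosome is a complex of the nucleus and cytosol whose subunits are encoded by *GPS1*, *COPS2*, *COPS3*, *COPS4*, *COPS5*, *COPS6*, *COPS7A*, *COPS7B*, *COPS8* and *COPS9*. These 10 genes were selected by symbol from the 60754 entries of the expression table, and each symbol matched 1 entry. All 10 passed the filter on low values, which asked for 1 TPM or more (TPM is an RNA level per length and library total) in 1 or more libraries and kept 15614 genes. The RNA-seq covered the clones C17.2 and C3.2, each as parental and as resistant cells, with 2 libraries in each of the 4 groups. Both clones derive from SEM, a human B-ALL (B-cell leukemia) line with a rearranged *KMT2A* gene, and both carry miniAID-mClover3 on the 2 alleles of *CTCF* together with a lentiviral cassette for OsTIR1(F74G) and Zeocin resistance, so these alterations are shared by every group. Parental cells received no drug. The resistant cells came from 36 days of culture in 1 μM 5-Ph-IAA, the auxin analog that recruits tagged protein to OsTIR1(F74G), with 100 μg/ml Zeocin. The paper defines resistant cells as those taken after wash-out of both drugs. The sample labels give the drugs and the day but no wash-out. The resistant cells of C17.2 carry a truncated CTCF without the degron tag. The paper reports that tagged full-length CTCF came back beside it after wash-out and was still degraded by auxin. The resistant cells of C3.2 keep full-length CTCF with an altered miniAID. Each comparison rests on a single clone, and the library names of the clones begin with different runs of numbers, whose meaning the labels do not give, so a clone and whatever those numbers mark cannot be told apart.

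The COP9 signalosome removes the ubiquitin-like protein NEDD8 from cullins, the scaffolds of cullin-RING ubiquitin ligases. Neddylation switches these ligases on, and cycles of neddylation and deneddylation let a cullin exchange its substrate receptor. OsTIR1 is a plant F-box protein, and in the degron system it works as a substrate receptor of the SCF ligase built on SKP1 and CUL1, which is a substrate of this complex. COPS5 is the catalytic metalloprotease and COPS6 is its inactive partner of the same fold. GPS1, COPS2, COPS3, COPS4, COPS7A, COPS7B and COPS8 are subunits with a PCI domain, a fold shared with the proteasome lid and with the translation factor eIF3, and COPS9 is a small acidic subunit. The comparison of resistant with parental cells asked whether RNA of this complex differed in cells that had escaped the degradation of CTCF. Within each clone the escape, the exposure to both drugs and the long treatment go together and cannot be told apart.

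Protein-coding genes took 36.0 to 43.3% of the TPM of a library, and Pearson's r between 2 libraries of the same group was 0.968 to 0.979 across genes, which are not independent replicates. The deposited TPM keep no sequencing depth, so no counting error can be given. Libraries were scaled by factors of 0.893 to 1.16, and "scaled TPM" below means TPM after this step. Of 9 B-lineage markers, 7 had at least 1 TPM in every library, among them *CD79A*, *EBF1* and *PAX5*, whereas *DNTT* and *RAG1* were at most 0.25 and 0.31 TPM. Their summed level was 609 to 789 TPM, lower in the resistant than in the parental libraries of both clones (687 to 694 against 743 to 789 TPM in C17.2, and 609 to 646 against 738 to 789 TPM in C3.2). Single markers did not all go the same way. At an adjusted p under 0.05 in limma, 3 were lower and 0 higher in C17.2, against 27.3% of all genes tested in either direction. In C3.2, 4 were lower and 1 was higher, against 11.4%. The 4 T cell markers, 3 erythroid markers and 3 epithelial markers summed to at most 0.25, 0.21 and 0.17 TPM, with *CD3D* and *EPCAM* listed at 0 in every library. The 4 myeloid markers summed to 2.23 to 4.10 TPM, with 3.50 to 3.95 TPM in resistant against 2.26 to 2.83 TPM in parental libraries of C3.2. *COL1A1*, of the 2 kidney line or fibroblast markers, had 2.24 to 7.45 TPM and was highest in C17.2 resistant cells, and *COL1A2* was listed at 0. The part of these levels in the results was not tested, and in bulk RNA fewer cells of a type and less RNA per cell cannot be told apart. RNA of *CTCF*, the tagged gene, was higher in resistant cells of both clones, by a log2 value of 0.44 in C17.2 (limma, Benjamini-Hochberg adjusted p = 0.000795) and 0.34 in C3.2 (limma, Benjamini-Hochberg adjusted p = 0.0068). This is no check of the degradation, which acts on protein.

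The members are spread over the genome, and none overlaps another. Positions are those of Gencode release 44 on GRCh38. *GPS1* (ENSG00000169727.12) spans chr17:82050691-82057470 on the forward strand, with 13 exons. *COPS2* (ENSG00000166200.15) spans chr15:49106068-49155661 on the reverse strand, with 13 exons, and *COPS3* (ENSG00000141030.13) spans chr17:17246616-17281273 on the reverse strand, with 12. *COPS4* (ENSG00000138663.9) spans chr4:83034447-83075818 on the forward strand, with 10 exons, and *COPS5* (ENSG00000121022.14) lies on the reverse strand of chromosome 8, with 8. *COPS6* (ENSG00000168090.10) is the most compact, at chr7:100088969-100092187 on the forward strand, with 10 exons. The paralogs *COPS7A* (ENSG00000111652.10) and *COPS7B* (ENSG00000144524.17) span chr12:6724014-6731875 with 8 exons and chr2:231781671-231809254 with 7, both on the forward strand. *COPS8* (ENSG00000198612.11) spans chr2:237085882-237100474 on the forward strand with 8 exons, and *COPS9* (ENSG00000172428.11) spans chr2:240126563-240136807 on the reverse strand with 3.

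Several members share DNA with a gene on the opposite strand, and the sources used here do not say whether reads were counted by strand, so reads from the shared stretch cannot be told apart. *GPS1* overlaps *RFNG* (5.00 to 7.69 TPM), *COPS5* overlaps *CSPP1* (6.32 to 10.44 TPM) and *COPS7B* overlaps *PDE6D* (15.2 to 20.1 TPM). *COPS2* and *GALK2* (6.59 to 7.96 TPM) start 5 bases apart on opposite strands. None of these 4 neighbors passed the test in either clone. *COPS8* starts 44 bases from *COPS8-DT*, a divergent long non-coding RNA of 0.19 to 0.77 TPM. No overlapping gene was annotated for *COPS3*, *COPS4*, *COPS6*, *COPS7A*, *COPS8* and *COPS9*. Of the pseudogenes named after members, *COPS8P2* had 0.15 to 0.57 TPM, *COPS8P3* at most 0.07 TPM, and *COPS5P1* was listed at 0, against at least 11.44 TPM for *COPS8* and 19.14 TPM for *COPS5*.

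RefSeq promoter windows of GRCh38.p14, from 250 bases before to 50 bases after a start, were given for 9 of the 10 members. They were searched on both strands for 7 short motifs. A gene counted when any of its windows held the motif, and these members had 1 to 3 windows each. The shares given beside them cover all genes with a window, expressed or not, and were not matched for the number of windows. GGGCGG, the GC box, occurred in a window of 8 of the 9 members, against 48.3% of the 27305 genes of the table. CCGGAA, a core of ETS-type sites, occurred in 7 of the 9 (*GPS1*, *COPS2*, *COPS3*, *COPS7A*, *COPS7B*, *COPS8* and *COPS9*), against 20.1% of genes, and CCAAT occurred in 5, against 39.7%. CACGTG was found for *COPS7A* (8.77% of genes), TGACGT for *COPS3* and *COPS8* (9.64%), AAGATGGC for *COPS4* (3.52%), and TATAAA for no member (14.0%). A match is a description of the letters and not a binding site or a cause. The forward-strand stretches of 150 bases that end just before the first annotated base of *COPS6* (chr7:100088819-100088968), *COPS8* (chr2:237085732-237085881) and *COPS7A* (chr12:6723864-6724013) are printed here, because these genes are among the 4 that passed a test below. Capitals mark matches to the 7 motifs on either strand.
COPS6: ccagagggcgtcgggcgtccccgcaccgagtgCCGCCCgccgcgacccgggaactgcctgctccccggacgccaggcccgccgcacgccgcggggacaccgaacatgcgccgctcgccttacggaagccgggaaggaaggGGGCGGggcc
COPS8: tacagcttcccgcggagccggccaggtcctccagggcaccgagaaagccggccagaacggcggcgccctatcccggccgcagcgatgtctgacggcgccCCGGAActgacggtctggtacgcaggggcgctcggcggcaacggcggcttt
COPS7A: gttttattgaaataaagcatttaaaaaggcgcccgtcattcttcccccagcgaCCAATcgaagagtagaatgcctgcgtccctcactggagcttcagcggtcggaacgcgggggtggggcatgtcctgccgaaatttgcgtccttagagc
The stretch before *COPS6* holds GGGCGG on each strand, that before *COPS8* holds CCGGAA, and that before *COPS7A* holds CCAAT. Their GC contents were 78.7%, 72.0% and 53.3%, and none of the 7 motifs occurred in more than 1 of them. Part of the *COPS8* stretch also lies in exons of *COPS8-DT* on the reverse strand.

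TPM is per length and can be compared between genes. Averaged over the 8 libraries, the level fell in the order *COPS3* (58.9 TPM), *COPS6* (41.1), *COPS2* (31.5), *GPS1* (30.4), *COPS9* (24.0), *COPS7B* (23.0), *COPS5* (21.4), *COPS4* (14.6), *COPS8* (13.8) and *COPS7A* (9.59). *COPS3* was first, *COPS6* second and *COPS7A* last in each of the 8 libraries. Neighbors in the order that changed places were *COPS2* and *GPS1*, *COPS9* and *COPS7B*, and *COPS4* and *COPS8*, of which the former was higher in 5 of 8 libraries in each case. Which of them was higher went only partly with the groups. *COPS2* exceeded *GPS1*, and *COPS4* exceeded *COPS8*, in all 4 parental libraries. In resistant libraries the order could differ within a group. *COPS2* had 33.68 and 36.05 TPM in C17.2, against 35.31 and 32.01 TPM for *GPS1*. *COPS4* had 12.91 and 13.72 TPM in C3.2, against 14.06 and 13.22 TPM for *COPS8*. In the other resistant group of each pair, both libraries had the opposite order to the parental ones. *COPS9* was under *COPS7B* in both parental and 1 of the 2 resistant libraries of C17.2, and above it in all 4 libraries of C3.2. *GPS1* exceeded *COPS9*, and *COPS7B* exceeded the catalytic subunit *COPS5*, in 7 of 8 libraries. *COPS9* moved most between libraries, from 15.42 to 31.35 TPM, a ratio of 2.03, and held ranks from 3 to 7. *COPS7B* moved least, from 21.28 to 25.18 TPM, a ratio of 1.18. The sum over the members was 251 to 305 TPM, and 246 to 282 scaled TPM.

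**Figure D1:**
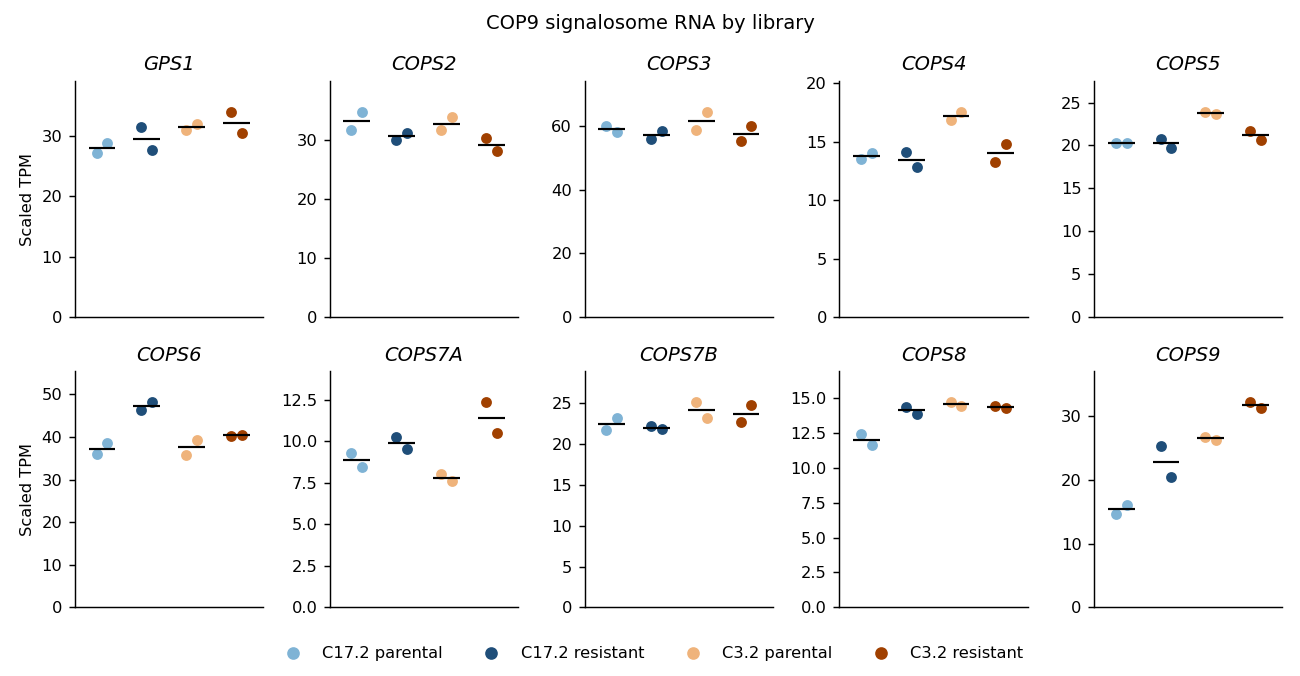
Scaled TPM of the 10 members (y axis, starting at 0, with its own range for each gene) in the 8 libraries, shown as points by group with a bar at the mean of the 2 libraries. *COPS6*, *COPS8* and *COPS9* in C17.2 and *COPS7A* in C3.2 are higher in both resistant than in both parental libraries, and *COPS9* spans 14.7 to 32.2.

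In C17.2, 3 of the 10 members were higher in resistant cells and none was lower at an adjusted p under 0.05. They were *COPS6*, *COPS8* and *COPS9*, with rises of 1.16-fold to 1.45-fold. Over all 15614 genes tested, 27.3% passed in either direction and 13.4% passed as higher, so the share of members that passed in either direction was near the background. The median log2 change of the members was 0.03, against 0.00 over all genes tested and 0.01 over the protein-coding ones, and 5 members had positive and 5 negative values. The scaled TPM of resistant and parental libraries did not overlap for 5 members (*COPS6*, *COPS7A*, *COPS8* and *COPS9* higher, *COPS2* lower), against 66.0% of all genes tested. On TPM as deposited, *GPS1*, *COPS4*, *COPS5* and *COPS7B* were also higher without overlap, which made 8 members higher, against 49.2% of all genes tested. In C3.2, only *COPS7A* passed, as higher, against a background of 11.4% in either direction and 4.46% as higher. The median of the members was -0.02, with 4 positive and 6 negative values, and 6 members did not overlap (*COPS6*, *COPS7A* and *COPS9* higher, *COPS2*, *COPS4* and *COPS5* lower), against 55.8% of all genes. No member changed differently between the clones at an adjusted p under 0.05 in limma, against 9.91% of genes, whereas 4 did at an unadjusted p under 0.05, against 27.0% of genes. The p-values measure the spread between these libraries, since nothing in the sources says that the 2 libraries of a group came from separate cultures.

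*COPS9*, the small subunit that joined the list of known subunits last, had the largest rise. In C17.2 its scaled TPM was 14.7 and 16.0 in the parental libraries and 25.35 and 20.39 in the resistant libraries. Both resistant libraries exceeded both parental libraries, and the former differed more from each other than the latter. The log2 change was 0.54 (1.45-fold, standard error 0.099, 95% confidence interval 0.30 to 0.78, limma with Benjamini-Hochberg adjusted p = 0.00952). In C3.2 the parental libraries had 26.8 and 26.3 and the resistant libraries 32.2 and 31.3 scaled TPM. Here too the groups did not overlap, but the log2 change of 0.25 (95% confidence interval 0.01 to 0.49) did not pass (limma, Benjamini-Hochberg adjusted p = 0.168). Without parental library 1 of C17.2 the call in that clone was lost (limma, adjusted p = 0.0763), and so it was with the 4 libraries of the clone fitted alone (limma, adjusted p = 0.0631).

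*COPS6* pairs with the catalytic subunit. In C17.2 its scaled TPM was 36.0 and 38.5 in parental and 46.4 and 48.2 in resistant libraries. The groups were well apart, with a gap larger than the spread within either. The log2 change was 0.34 (1.26-fold, standard error 0.061, 95% confidence interval 0.19 to 0.48, limma with Benjamini-Hochberg adjusted p = 0.009). In C3.2 the values were 35.8 and 39.4 in parental and 40.3 and 40.5 in resistant libraries, with a log2 change of 0.10 that did not pass (limma, Benjamini-Hochberg adjusted p = 0.332). Those groups lay close together, and the highest parental library was just under the lowest resistant one. The changes of the 2 clones differed by 0.24 (limma, Benjamini-Hochberg adjusted p = 0.146). The call in C17.2 was lost without its parental library 1 (limma, adjusted p = 0.0619) or without its resistant library 2 (limma, adjusted p = 0.0592), and it was the only member call left with the clone fitted alone (limma, adjusted p = 0.0268).

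*COPS8*, the smallest of the PCI subunits, had 12.4 and 11.6 scaled TPM in parental and 14.3 and 13.8 in resistant libraries of C17.2. Both resistant libraries were above both parental libraries. The log2 change was 0.22 (1.16-fold, standard error 0.052, 95% confidence interval 0.09 to 0.34, limma with Benjamini-Hochberg adjusted p = 0.0253). On TPM as deposited it was 0.37. In C3.2 the parental libraries had 14.7 and 14.4 and the resistant libraries 14.4 and 14.3 scaled TPM. These lay within a narrow range, and the log2 change was -0.02 with an interval of -0.14 to 0.11. The changes of the 2 clones differed by 0.23 (unadjusted p = 0.0182 and Benjamini-Hochberg adjusted p = 0.104 in limma). In C17.2 the call was lost without parental library 2 (limma, adjusted p = 0.106), resistant library 1 (0.0988) or resistant library 2 (0.0606), and with the clone fitted alone (0.0777).

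*COPS7A* and *COPS7B* are paralogs, and a complex holds one or the other. In C3.2, *COPS7A* had 8.01 and 7.60 scaled TPM in parental and 12.4 and 10.5 in resistant libraries. The groups did not overlap, and the log2 change was 0.49 (1.41-fold, standard error 0.089, 95% confidence interval 0.28 to 0.71, limma with Benjamini-Hochberg adjusted p = 0.0208). In C17.2 the values were 9.32 and 8.48 in parental and 10.3 and 9.55 in resistant libraries, also without overlap, with a log2 change of 0.14 that did not pass (limma, Benjamini-Hochberg adjusted p = 0.292). The changes of the clones differed by -0.35 (unadjusted p = 0.0298 and Benjamini-Hochberg adjusted p = 0.14 in limma). The call in C3.2 was lost when any library other than its resistant library 2 was left out (limma, adjusted p of 0.0512 to 0.122), and with that clone fitted alone (0.122). *COPS7B* stayed between 21.7 and 25.1 scaled TPM in all 8 libraries, its groups overlapped in both clones, and its log2 changes were -0.03 and -0.02, with a 95% confidence interval of -0.18 to 0.13 in both.

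The share of each paralog in the TPM of the pair does not depend on the scaling of the libraries. *COPS7A* gave 30.1% and 26.8% of the summed TPM of the pair in parental and 31.7% and 30.5% in resistant libraries of C17.2, and 24.2% and 24.8% in parental and 35.3% and 29.9% in resistant libraries of C3.2. In both clones both resistant libraries were above both parental ones, and *COPS7B* was the more abundant of the pair in all 8 libraries. The log2 ratio of *COPS7A* to *COPS7B* was taken from scaled TPM with 1 added to each, so it is not wholly free of the scaling. The ratio was higher in resistant than in parental cells by 0.17 in C17.2 and by 0.52 in C3.2. Each difference had an exact two-sided permutation p of 0.333, the smallest that 2 libraries against 2 allow. Over both clones, with labels permuted within each, the mean difference was 0.34 (exact permutation p = 0.0556, the smallest this design allows), so this permutation test could not reach 0.05. Without parental library 2 of C17.2 the difference in that clone was 0.06, and without parental library 1 it was 0.28. The share of *COPS9* in the summed TPM of all members was 5.96% and 6.31% in parental and 9.36% and 7.74% in resistant libraries of C17.2, and 9.82% and 9.31% in parental and 11.6% and 11.4% in resistant libraries of C3.2.

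**Figure D2:**
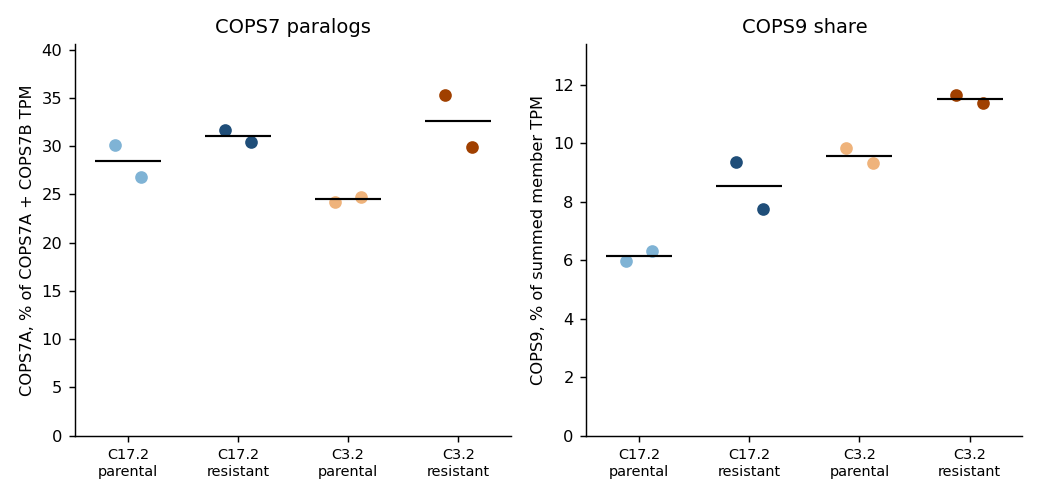
Share of *COPS7A* in the TPM of the 2 *COPS7* paralogs (left) and of *COPS9* in the summed TPM of the 10 members (right), in percent on axes that start at 0, with a point for each library and a bar at the group mean. In both clones and both panels the 2 resistant libraries lie above the 2 parental ones.

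RNA of the catalytic subunit *COPS5* was 20.3 and 20.3 scaled TPM in parental and 20.7 and 19.7 in resistant libraries of C17.2. The resistant libraries lay on either side of the parental ones, and the log2 change of -0.01 had an interval of -0.12 to 0.11. In C3.2 it was 23.9 and 23.7 in parental and 21.7 and 20.7 in resistant libraries. Both resistant libraries were lower there, with a log2 change of -0.16 that did not pass (95% confidence interval -0.28 to -0.05, limma with Benjamini-Hochberg adjusted p = 0.0792). *COPS4*, which contacts the cullin-bound RING protein, had a like pattern. Its scaled TPM was 13.5 and 14.0 in parental and 14.1 and 12.8 in resistant libraries of C17.2, which overlap, and 16.9 and 17.6 in parental and 13.2 and 14.8 in resistant libraries of C3.2, which do not. Its log2 change in C3.2 was -0.28 (95% confidence interval -0.46 to -0.10, limma with Benjamini-Hochberg adjusted p = 0.0587), and it passed (0.0441) when the test took only genes that reached 1 TPM in every library.

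The other PCI subunits did not pass in either clone. *COPS2*, which grips the cullin, had 31.59 and 34.75 scaled TPM in parental and 30.02 and 31.18 in resistant libraries of C17.2, and 31.7 and 33.8 against 30.3 and 28.1 in C3.2. On scaled TPM, though not on TPM as deposited, it was the one member with both resistant libraries below both parental ones in both clones, with log2 changes of -0.11 and -0.16 (limma, Benjamini-Hochberg adjusted p = 0.27 and 0.181). *COPS3*, the most abundant, was at 56.0 to 59.8 scaled TPM in C17.2 and 55.2 to 64.4 in C3.2, with overlapping groups and log2 changes of -0.04 and -0.10. *GPS1*, named after a suppressor of a G protein pathway, was at 27.2 to 31.5 and 30.5 to 34.0 scaled TPM, with overlapping groups and changes of 0.07 and 0.03. The standard errors of the members were 0.047 to 0.099 in each clone, on the log2 scale. The directions of uncalled members near 0 turned with the scaling: on TPM as deposited, where the median of all genes moved by 0.13 in C17.2 and 0.05 in C3.2, *COPS2*, *COPS3*, *COPS4*, *COPS5* and *COPS7B* had positive values in C17.2, and *COPS7B* and *COPS8* in C3.2. The 4 calls kept their direction under each scaling. With TPM as deposited, 75.1% of the genes that passed in C17.2 were higher in resistant cells, against 49.1% after scaling, and 57.8% against 39.3% in C3.2. Rescaling over protein-coding genes gave 64.5% and 70.1%, and quantile normalization gave 50.8% in C3.2.

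**Figure D3:**
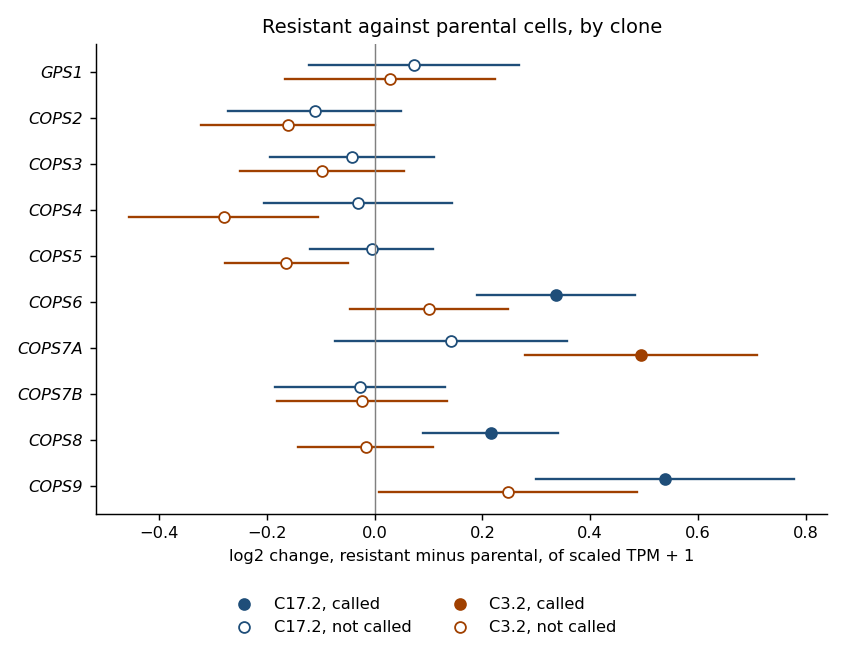
Log2 change from parental to resistant cells (x axis) of each member, on the scale of scaled TPM + 1, with 95% confidence intervals from limma, in C17.2 and C3.2; filled points passed an adjusted p under 0.05. The 4 filled points are *COPS6* at 0.34, *COPS8* at 0.22 and *COPS9* at 0.54 in C17.2 and *COPS7A* at 0.49 in C3.2.

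The members did not share 1 profile over the 8 libraries. The correlation of each member's scaled log2 values with the mean standardized profile of the other members was 0.77 for *COPS9*, 0.73 for *COPS5*, 0.72 for *GPS1* and *COPS8*, 0.62 for *COPS4* and 0.44 for *COPS7B*. It was 0.07 for *COPS3*, -0.25 for *COPS6* and -0.33 for *COPS2* and *COPS7A*. The points are 8 libraries that share 2 clones and 4 groups, so these values are descriptions. The mean profile of the members was -0.72 to 0.02 in the libraries of C17.2 and 0.20 to 0.64 in those of C3.2. The clones did not overlap in it, so likeness to it is no measure of a change with resistance. The protein-coding genes with the profile most like the mean of the members, among 6385 with a mean of at least 10 TPM, were *TXNDC5* (r = 0.98), *FASN* (0.97), *NXT1* (0.97), *MATR3* (0.97) and *PTRH2* (0.97).

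Genes that act with the complex were described by list. The counts stand beside 27.3% of all genes tested that passed in C17.2 (13.4% as higher) and 11.4% in C3.2 (4.46% as higher). Of 10 cullins and RING partners, 3 were higher in C17.2 resistant cells and none was lower (*CUL1* by 0.22, *CUL2* by 0.25 and the RING protein *RBX1* by 0.26, on the log2 scale), with a median of 0.09, and none passed in C3.2, with a median of 0.02. Of 12 tested neddylation and deneddylation genes of 13 listed, 4 were higher in C17.2. *NEDD8* itself changed by 0.60 on scaled TPM. Its means on TPM as deposited, 71.4 in parental and 121.6 in resistant cells, lay further apart than that. *DCUN1D1*, which helps to attach NEDD8, changed by 0.40, and the receptor exchange factor *CAND1* by 0.34. The fourth was *NAE1*, a subunit of the activating enzyme, at 0.18, whereas the other subunit, *UBA3*, the conjugating enzyme *UBE2M* and the protease *SENP8* had values of -0.04, -0.07 and -0.05 that did not pass. In C3.2 only *UBE2F*, the other conjugating enzyme, passed (0.24). The medians of this list were 0.03 in C17.2 and -0.07 in C3.2, and became 0.17 and -0.01 on TPM as deposited and 0.11 and 0.02 after rescaling over protein-coding genes. With each clone fitted alone, 3 genes of this list passed in C17.2 and none in C3.2.

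The next list held 6 genes for adaptors, which join substrate receptors to cullins (*SKP1*, *DDB1*, *ELOB* and *ELOC*), and for the receptors *SKP2* and *DDB2*. Of these, 5 were higher in C17.2, led by *SKP1* (0.64), *SKP2* (0.61) and *ELOC* (0.45), with a median of 0.39. Of all genes tested, 27.3% passed in that clone, and 13.4% as higher. None of the 6 passed in C3.2, against 11.4% of all genes tested. Their median there was -0.01, and it was positive (0.05 to 0.09) under the other 3 scalings. The median of the signalosome members in C17.2 was 0.03. Of 6 tested proteins that bind the signalosome, of 7 listed, the kinase subunit *CSNK2B* was higher by 0.19 and *CSNK2A2* lower, at -0.53, in C17.2, and the inositol kinase *ITPK1* was higher by 0.34 in C3.2. With C3.2 fitted alone no gene of that list passed in it. The medians of the list were 0.08 in C17.2 and -0.01 in C3.2, and the latter was 0.05 to 0.09 under the other 3 scalings. At an adjusted p under 0.05 in the limma test of the difference between clones, 9.91% of all genes tested passed. Of these lists, *SKP1*, *SKP2*, *ELOC* and *CAND1* did. The signs of the calls in these lists did not turn under any of the 3 other scalings.

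**Figure D4:**
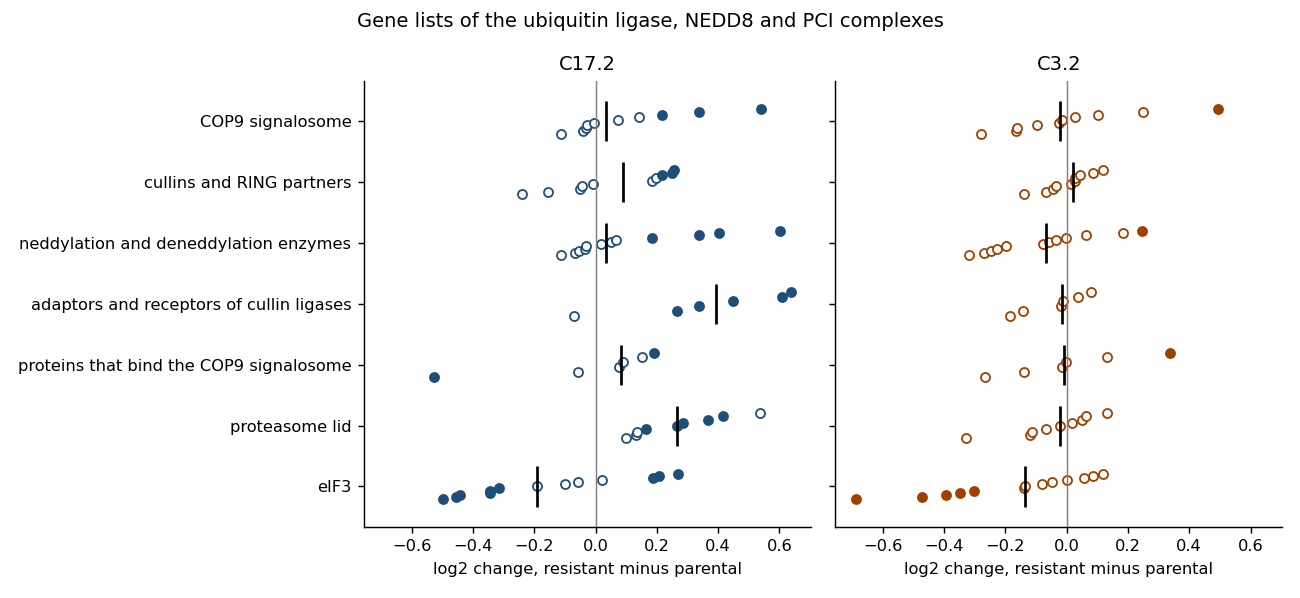
Log2 change from parental to resistant cells (x axis) of the genes of 7 lists in C17.2 (left) and C3.2 (right); points are genes, filled where the adjusted p from limma was under 0.05, and the vertical bar is the median of the list. In C17.2 the signalosome's median of 0.03 lies below that of the proteasome lid at 0.26 and above that of eIF3 at -0.19.

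The proteasome lid and eIF3 also hold subunits with the PCI fold. Their lists took in all the genes named for each complex and were not limited to subunits of that fold. Of all 15614 genes tested, 27.3% passed in C17.2 and 11.4% in C3.2. On TPM as deposited 5128 and 1239 of them passed. The test of the difference between clones passed for 9.91%. In C17.2 all 9 lid genes had positive values and 5 passed (8 on TPM as deposited), with a median of 0.26, against 3 of 10 signalosome genes with a median of 0.03. In C3.2 none of the lid genes passed and their median was -0.02 (0.03 to 0.08 under the other 3 scalings, with 1 gene higher after rescaling over protein-coding genes), and the test of the difference between clones passed for 3 of them (*PSMD3*, *PSMD7* and *PSMD11*). Of 13 eIF3 genes, 6 were lower and 3 higher in C17.2 (2 lower and 4 higher on TPM as deposited), and 5 were lower in C3.2 (3 on TPM as deposited and none with that clone fitted alone). The medians were -0.19 and -0.14, and -0.03 in C17.2 on TPM as deposited and -0.03 in C3.2 with either of the other scalings, which were rescaling over protein-coding genes and quantile normalization. The eIF3 genes with the largest falls were *EIF3F* (-0.50), *EIF3C* (-0.46) and *EIF3E* (-0.44) in C17.2, and *EIF3F* (-0.69), *EIF3L* (-0.47) and *EIF3E* (-0.39) in C3.2. The 3 that were higher in C17.2 were *EIF3B* (0.27), *EIF3G* (0.21) and *EIF3I* (0.19). Each signalosome subunit was set beside the lid subunit that corresponds to it in the architecture of the complex, and differences within these pairs were not tested. *COPS6* and its counterpart *PSMD7* were both higher in C17.2 (0.34 and 0.42), and *COPS9* and *SEM1* had the same value of 0.54, which passed for *COPS9* and not for *SEM1* (limma, Benjamini-Hochberg adjusted p = 0.0891). The catalytic subunits *COPS5* and *PSMD14* had -0.01 and 0.13, neither of which passed. *COPS2*, *COPS3* and *COPS4* had values from -0.11 to -0.03, and their counterparts *PSMD11*, *PSMD3* and *PSMD12* were higher by 0.37, 0.16 and 0.26. *COPS8* rose by 0.22, and *PSMD8*, at 0.10, did not pass. *GPS1* had 0.07 and its counterpart *PSMD6* 0.13, and *PSMD13*, the counterpart of both *COPS7* paralogs, rose by 0.28. In C3.2 no counterpart passed, and *COPS9* and *SEM1* had values of opposite sign, 0.25 and -0.33, that did not pass either.

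**Figure D5:**
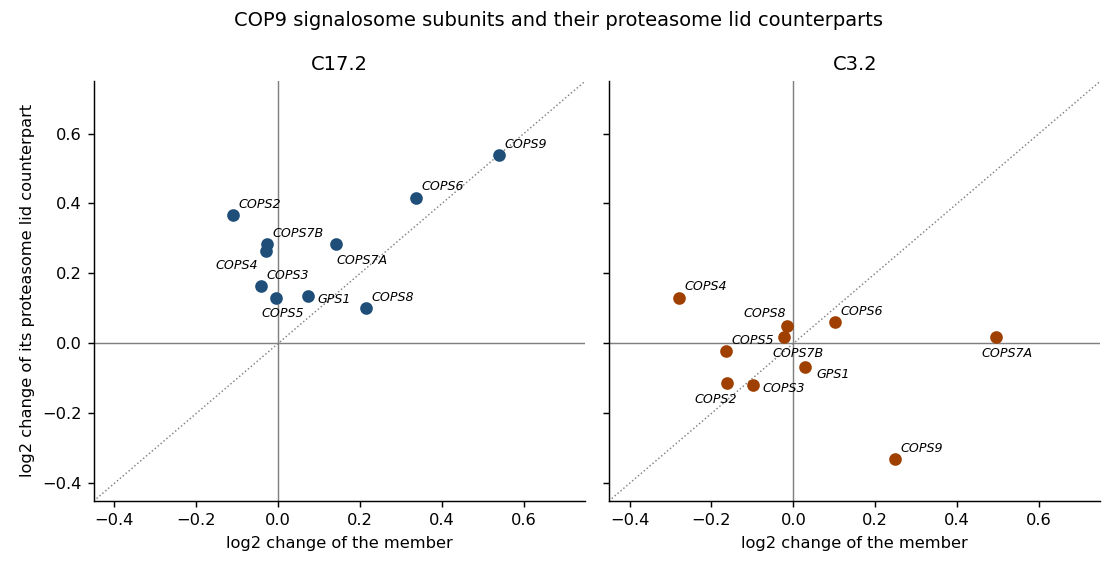
Log2 change from parental to resistant cells of each signalosome member (x axis) against that of its proteasome lid counterpart (y axis) in C17.2 (left) and C3.2 (right), with a dotted line of equal change; *COPS7A* and *COPS7B* share *PSMD13*. In C17.2 all counterparts have positive values, 5 of the 10 members do, and *COPS2* has the largest gap, at -0.11 against 0.37.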

How the data were processed

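Total RNA of 8 libraries was depleted of ribosomal RNA and sequenced. Per the labels and the study's methods, the authors used TrimGalore 0.6.3 for trimming, STAR 2.7.9a for alignment (GRCh38.p13) and RSEM 1.3.1 for gene levels (Gencode 31). The deposited values are TPM per gene and library, which sum to the same total in each library, so the depth is unknown.

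From the TPM, library factors were computed as trimmed means of log2 ratios to the mean library (30% of ratios and 5% of means trimmed at each end). Log2(scaled TPM + 1) of genes that reached 1 TPM in any library was fitted in limma 3.58.1 (R 4.3.3) with an intensity trend, in 1 model of the 4 groups. P-values were two-sided and adjusted by the Benjamini-Hochberg method over all 15614 genes, with a threshold of 0.05. The study's own test, limma-voom, takes counts, which TPM cannot replace. Fold changes on this scale understate those of low genes. Only the ratio of the *COPS7* paralogs was tested by exact permutation. The model was also run on simulated data, with changes of 1 on the log2 scale and no difference between clones. Those changes are larger than any of the members, so the run does not bear on changes of their size. All 10 members are named, and of the lists at most 3 genes with the largest rise and 3 with the largest fall among those that passed, apart from the lid counterparts. *NAE1*, *UBA3*, *UBE2M* and *SENP8*, and the motifs, were chosen after the values of the genes were seen. One B-lineage marker of the list is not reported here. Members and lists were chosen with earlier results of these data known. Tables and plots were made with Python 3.11.15, pandas 2.3.3 and matplotlib 3.10.9.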

Additional observations from a re-analysis of the deposited data

Results flagged for a closer look

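The change in C17.2 minus that in C3.2 was tested in limma with Benjamini-Hochberg adjustment over all genes. No COP9 signalosome member passed, and 7 genes of the related lists did, against 9.91% of the 15614 genes tested. None of the 10 cullins and RING partners, 6 tested binding proteins and 13 eIF3 genes passed. The 7 were 3 of 6 adaptors and receptors, 1 of 12 neddylation and deneddylation genes and 3 of 9 lid genes. On the log2 scale the difference was 0.79 for the F-box receptor *SKP2* (limma, adjusted p = 0.00231). For the adaptors it was 0.66 for *SKP1* (limma, adjusted p = 0.00298) and 0.59 for *ELOC* (limma, adjusted p = 0.0126). *CAND1*, the exchange factor, differed by 0.53 (limma, adjusted p = 0.00787). Of the proteasome lid, *PSMD11* differed by 0.48 (adjusted p = 0.0383), *PSMD7* by 0.36 (0.0202) and *PSMD3* by 0.28 (0.0304), all in limma. Each had the higher value in C17.2. Among the signalosome members the largest differences were -0.35 for *COPS7A* and 0.29 for *COPS9*, with limma adjusted p of 0.14 and 0.246.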

How the results depend on the processing

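Each member's change was recomputed under 8 other processing choices and with each of the 8 libraries left out. In C17.2, 3 members passed under all choices of scaling, pseudocount, filter and trend, and 1 (*COPS6*) with each clone fitted alone, where the number of genes that passed went from 4261 to 3569. Leaving out libraries gave 1 to 3, where the lone library of a group is assumed to vary like the others. In C3.2, 1 member passed, 2 passed with a TPM of at least 1 in every library (*COPS4* and *COPS7A*), none passed with each clone fitted alone, where 74 in place of 1773 genes passed (limma; *COPS7A* adjusted p = 0.122), and 0 to 1 passed with libraries left out. No member differed between clones in any of these. The called values ranged over all of these from 0.29 to 0.49 for *COPS6*, 0.39 to 0.69 for *COPS9*, 0.17 to 0.37 for *COPS8* and 0.39 to 0.60 for *COPS7A* in C3.2.

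Values of members that did not pass turned sign. On TPM as deposited those in C17.2 were 0.0452 for *COPS2*, 0.1166 for *COPS3*, 0.12 for *COPS4*, 0.1489 for *COPS5* and 0.1284 for *COPS7B*, those in C3.2 were 0.0398 for *COPS7B* and 0.0455 for *COPS8*, and the difference for *COPS7B* was 0.0886. Rescaled over protein-coding genes, they were 0.0413 for *COPS3*, 0.0483 for *COPS4*, 0.0756 for *COPS5* and 0.0549 for *COPS7B* in C17.2, and 0.0045 for *COPS3*, 0.0758 for *COPS7B* and 0.0805 for *COPS8* in C3.2. Quantile normalization gave 0.0088 for *COPS7B* in C3.2 and a difference of -0.0123 for *COPS3*. With libraries left out, C17.2 ranged from -0.016 to 0.1631 for *GPS1*, -0.0967 to 0.0368 for *COPS4*, -0.039 to 0.03 for *COPS5* and -0.0713 to 0.0188 for *COPS7B*. C3.2 ranged from -0.0498 to 0.106 for *GPS1* and -0.0828 to 0.0336 for *COPS7B*. The differences ranged from -0.0429 to 0.1362 for *GPS1*, -0.0179 to 0.1143 for *COPS2*, -0.0087 to 0.1201 for *COPS3* and -0.0611 to 0.0555 for *COPS7B*. The members' median in C17.2 was -0.01 to 0.10 with libraries left out, 0.19 on TPM as deposited and 0.12 rescaled over protein-coding genes, and that in C3.2 was 0.04 and 0.08. The difference of the paralogs' log2 ratio was 0.37 over both clones with a pseudocount of 0.1, and 0.26 to 0.43 with libraries left out, which gave 0.06 to 0.28 in C17.2 and 0.35 to 0.68 in C3.2. The cause of these changes was not tested. No paired analysis was possible because the labels give no replicate numbers shared between groups. TPM hold no depth, and 2 libraries a group limit what the tests can separate.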
